A study of Mus musculus with 6 samples.

Results

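The tropomyosins are the rod-shaped proteins that lie along actin filaments, and in the mouse they come from 4 genes, Tpm1, Tpm2, Tpm3 and Tpm4. Every transcript row assigned to the Entrez identifiers of these genes was taken, which gave 30 transcript models among 62498 rows of 17524 genes. Tpm1 had 14 models, Tpm2 had 4, Tpm3 had 11 and Tpm4 had 1. The libraries were RNA-seq of mouse heart after ligation of the anterior descending branch of the left coronary artery, 3 labelled as control (35, 36 and 37, genotype WT) and 3 labelled as TFEB overexpression (34, 41 and 43). The study asked whether TFEB, a transcription factor of lysosomal genes, acts on cardiac fibroblasts, and names the model R26-LSL-TFEB [+/+]; Acta2-cre: a Cre-dependent TFEB allele at the Rosa26 locus, with the Cre under the promoter of smooth muscle actin. All 6 libraries share the ligation, and the labels give no unoperated heart, no time after ligation, no age, sex or strain, and do not say whether the WT controls carry the Cre or the allele. Nothing in the labels says that each library is a separate animal, so p-values measure the spread between these libraries, which may be technical.

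Tropomyosin forms head-to-tail cables of coiled-coil dimers along actin. In striated muscle the cable, together with troponin, covers the myosin binding sites and shifts when calcium rises; in other cells it sets which myosins and severing proteins reach a filament. Most of these genes yield several proteins, since an upstream promoter gives long forms and an internal promoter gives short, cytoskeletal forms, exon 6 is used as 6a or 6b, and the last coding exon is chosen from alternatives such as 9a, 9c and 9d. The long Tpm1 form with 6b and 9a is the alpha-tropomyosin of heart muscle, whereas forms ending in 9d are typical of smooth muscle and non-muscle cells.

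The models differ by small cassettes, so the alternative exons themselves are shown, because the Tpm1 and Tpm2 models named here differ in them. They were read from the GRCm38 (mm10) genome at the coding exons of GENCODE M21 transcripts that GENCODE pairs with the RefSeq models, all on the minus strand and written 5′ to 3′ along the transcript; capitals mark the bases at which the 2 alternatives of a pair differ. Tpm1 6a lies at chr9:67032466-67032541, 6b at chr9:67031951-67032026, 9a at chr9:67029664-67029742 and the coding stretch of 9d at chr9:67023362-67023441. Tpm2 6a lies at chr4:43519003-43519078 and 6b at chr4:43518644-43518719.
Tpm1 6a: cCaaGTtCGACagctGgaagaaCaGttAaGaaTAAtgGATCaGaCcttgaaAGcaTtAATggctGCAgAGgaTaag
Tpm1 6b: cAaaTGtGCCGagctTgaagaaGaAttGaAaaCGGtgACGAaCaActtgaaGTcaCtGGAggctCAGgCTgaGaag
Tpm1 9a: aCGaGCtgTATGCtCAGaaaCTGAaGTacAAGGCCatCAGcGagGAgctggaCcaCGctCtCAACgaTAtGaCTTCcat
Tpm1 9d: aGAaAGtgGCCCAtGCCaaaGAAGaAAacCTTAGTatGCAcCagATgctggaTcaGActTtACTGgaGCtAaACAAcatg
Tpm2 6a: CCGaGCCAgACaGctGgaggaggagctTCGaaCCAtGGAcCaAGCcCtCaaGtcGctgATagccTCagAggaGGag
Tpm2 6b: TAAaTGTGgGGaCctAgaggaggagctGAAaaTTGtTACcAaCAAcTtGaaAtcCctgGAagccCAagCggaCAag
The Tpm1 alternatives 6a and 6b differed at 33 of 76 bases and were 56.6% identical. Exons 9a and 9d of Tpm1 differed at 45 of the 79 bases compared . Tpm2 6a and 6b differed at 35 of 76 bases. Between genes, the long 6b and 9a coding sequences of Tpm1 and Tpm2 were 78.5% identical over 852 bases, and the leading short form of Tpm3 matched Tpm4 at 71.5% of 744 bases. A coding exon chain could be paired with 17 of the 30 models, and 13 had none, among them every predicted model (identifiers starting with XM). In 2 pairs of models, both members are paired with the same GENCODE transcript: NM_009416 with NM_001277875, and NM_001253740 with NM_001271764. How the members of each pair differ was not examined.

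Estimated counts per library summed to 12942480 to 14969287. The labels call the material both heart and primary fibroblasts, yet cardiomyocyte markers dominated every library. The heart myosin Myh6 stood at 23129 to 49163 CPM (counts scaled to library size) and the fibroblast receptor Pdgfra at 71.1 to 117. The gap was smaller for summed markers. The 14 cardiomyocyte markers reached 82385 to 145776 CPM and the 10 fibroblast markers 3946 to 14481 CPM. Tfeb itself was at 34.4, 33.8 and 41.4 CPM in control 35, 36 and 37 and 45.4, 45.3 and 39.4 CPM in TFEB 34, 41 and 43, overlapping (log2 fold change 0.25 ± 0.12 SE, edgeR adjusted p = 1.00). Control 35 was highest in all 4 atrial muscle markers, with the atrial light chain Myl7 at 1507 CPM against 134 CPM in control 37 and 0.127 to 37.7 CPM in the other 4 libraries. The fourth marker, Nppa, which stressed ventricle also expresses, ran in another order, at 13805, 4178 and 597 CPM in control 35, 36 and 37, against 8454, 2328 and 224 CPM in TFEB 34, 41 and 43. TFEB 34, control 36 and TFEB 41 were rich in scar matrix, with the summed level of 12 activated fibroblast and matrix markers at 10140, 5657 and 4223 CPM, against 2174 CPM in control 35, 836 CPM in control 37 and 650 CPM in TFEB 43. In such bulk tissue, fewer cells of a type and less RNA per cell cannot be told apart.

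Heart muscle tropomyosin made up nearly all of the family's transcripts, and none of the 4 genes passed the test between TFEB and control hearts. Tpm1 (Entrez 22003, chr9:67022590-67049672, GRCm38) was listed at 11964, 14000 and 17423 TPM (the share of a library's transcripts, corrected for length) in control 35, 36 and 37 and at 13484, 16489 and 17310 TPM in TFEB 34, 41 and 43. The groups overlapped from end to end, with means of 14462 ± 2759 and 15761 ± 2014 TPM (SD, n = 3 each). Tpm1 took 96.7% to 98.8% of the TPM of the 4 genes together. By TPM the other genes followed in the order Tpm4, Tpm3 and Tpm2, with means over the 6 libraries of 174, 92.5 and 44.4 TPM. Tpm4 was above Tpm3 and Tpm3 above Tpm2 within every library, but across libraries the ranges of neighbours in this order overlapped, apart from Tpm1. In edgeR's quasi-likelihood test on summed estimated counts, the Tpm1 log2 fold change (TFEB over control) was 0.12 ± 0.32 (SE, adjusted p = 1.00), and the 95% interval of the ratio ran from 0.641 to 1.84. No gene of the 13565 tested passed an adjusted p of 0.05, a background of 0%, with 164 at an unadjusted p under 0.05 and 1 called by DESeq2, which was not a tropomyosin.

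**Figure D1:**
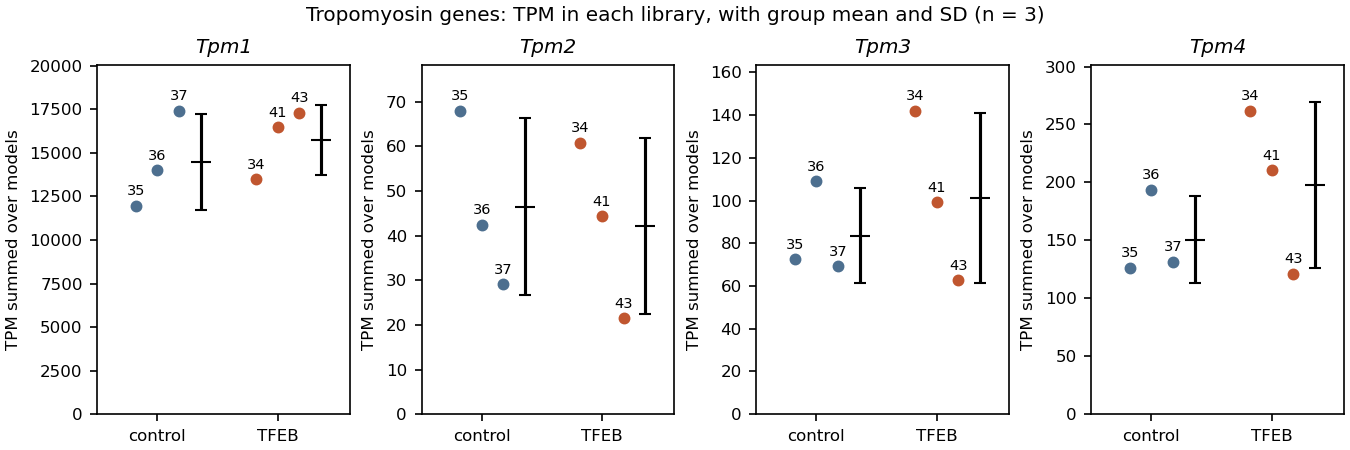
TPM of each tropomyosin gene, summed over its models (y axes from 0), in the 3 control and 3 TFEB libraries, labelled by library number; the bars beside the points are the group mean and SD. Control and TFEB points overlap in all 4 panels, and Tpm1 lies at 11964 to 17423 TPM while the other 3 genes stay at or below 262 TPM.

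The level of Tpm1 was set by 1 model. NM_001164248, the long form of 284 residues with 6b and 9a that encodes striated muscle alpha-tropomyosin, held 11521, 13456 and 16871 TPM in control 35, 36 and 37 and 12861, 15872 and 16771 TPM in TFEB 34, 41 and 43. Its share of Tpm1 stayed between 95.4% and 96.9%, and its groups did not separate (log2 fold change 0.11 ± 0.28 SE, edgeR adjusted p = 1.00). Among Tpm1 models with a known chain, 6b carried 98.9% to 99.2% of TPM, long forms 99.4% to 99.7% and exon 9a 97.9% to 99.3%. Tpm1 was lowest in control 35, and without that library its log2 fold change was -0.0037.

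Below the muscle form lay a tier of Tpm1 models far lower in TPM. NM_024427, long with 6b and the 9d end used in smooth muscle and non-muscle cells, was at 160, 200 and 124 TPM in control 35, 36 and 37 and at 258, 211 and 112 TPM in TFEB 34, 41 and 43. TFEB 34 was highest and TFEB 43 lowest, so the TFEB libraries enclosed all 3 controls (log2 fold change 0.24 ± 0.29 SE). Relative to NM_001164248 it amounted to 1.39%, 1.49% and 0.732% in control 35, 36 and 37 and to 2.01%, 1.33% and 0.669% in TFEB 34, 41 and 43 (exact two-sided permutation p = 1). The highest values were in TFEB 34, control 36 and control 35 and the lowest in control 37 and TFEB 43, the pair that also had the lowest summed matrix markers; the part of those markers in the result was not tested. The predicted models XM_006511040 and XM_006511041, whose exon chains are not known here, spanned 128 to 189 TPM and 47.9 to 103 TPM.

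The long form NM_001164251, which swaps 6b for 6a but keeps the muscle end 9a, varied more across libraries, 5.43-fold from lowest to highest, than the other Tpm1 models with a mean above 10 TPM. It stood at 19.5, 76.8 and 73.2 TPM in control 35, 36 and 37 and at 44.7, 92.3 and 106 TPM in TFEB 34, 41 and 43. Control 35 was lowest and TFEB 34 next, and the groups overlapped (log2 fold change 0.54 ± 0.60 SE, edgeR adjusted p = 1.00). Without control 35 the log2 fold change was 0.13 ± 0.44 SE. The short form NM_001164254, with 6a and 9a, ran differently, at 71.1, 41.5 and 80.1 TPM in control 35, 36 and 37 and 62.4, 54.8 and 70.3 TPM in TFEB 34, 41 and 43. Control 36 was its lowest library and control 37 its highest, and the TFEB values lay between them. The 9c form NM_001164255, of 281 residues, stayed at 3.65 to 6.83 TPM in all 6 libraries. The predicted XM_036154840 was at 0.59 to 6.56 TPM, 3 further predicted models reached at most 3.31 TPM with 0 in some libraries, and the short forms NM_001164253 and NM_001164256 were each above 0 in 1 library, at 0.36 and 0.32 TPM.

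**Figure D2:**
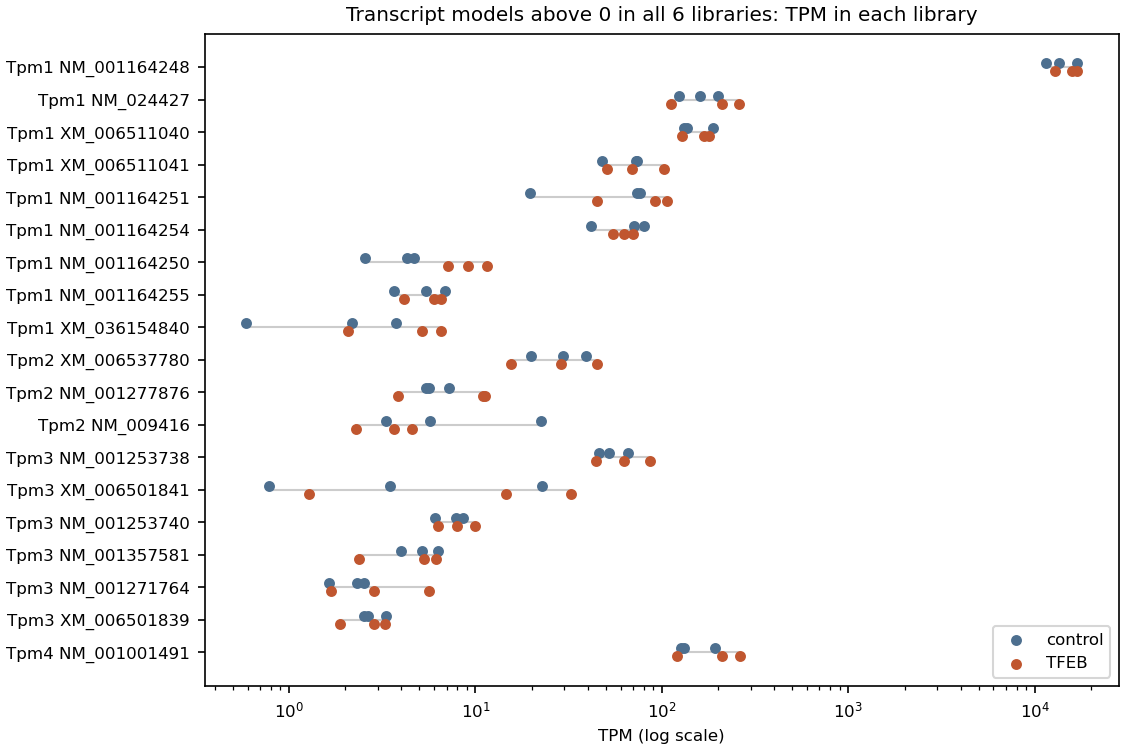
TPM on a log axis of the 19 tropomyosin models that were above 0 in all 6 libraries; each point is a library, coloured by group, and grey lines join the lowest and highest library. Tpm1 NM_001164248 stands alone at 11521 TPM and more, Tpm3 XM_006501841 has the longest line, and Tpm1 NM_001164250 is the model in which the 2 groups do not overlap.

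Of the 24 models tested, 1 had groups whose TPM did not overlap, NM_001164250, a rare long Tpm1 form with 6a and 9d. It was at 4.66 TPM in control 35, 4.3 in control 36 and 2.55 in control 37 and at 11.5, 9.12 and 7.13 TPM in TFEB 34, 41 and 43, on 60.5, 50.6 and 30.5 estimated counts in control and 145, 108 and 81.6 in TFEB. Every TFEB library was above every control. Across all 33706 transcripts tested, 3.35% had all TFEB libraries higher in the same way and 3.71% had all lower, and 1 in 24 is near that background. On the log2 scale the difference was 1.26 ± 0.35 (SE), which is 2.40-fold (95% interval 1.33 to 4.33). The unadjusted edgeR p was 0.0111 and the adjusted p 1.00, so it did not pass, and DESeq2 gave an adjusted p of 0.0929. Leaving out 1 library at a time gave log2 fold changes of 1.06 to 1.43. Set against NM_024427, a long model with 6b and 9d, it amounted to 2.91%, 2.15% and 2.06% in control 35, 36 and 37 and to 4.45%, 4.33% and 6.35% in TFEB 34, 41 and 43. The other exons of this pair were not compared. All 3 TFEB ratios were higher, with an exact two-sided permutation p of 0.1, the smallest that 3 against 3 allows. The same 6a to 6b ratio among models ending in 9a was 0.169%, 0.570% and 0.434% in control 35, 36 and 37 and 0.347%, 0.581% and 0.632% in TFEB 34, 41 and 43. These overlapped (exact two-sided permutation p = 0.5). The model and both ratios were singled out after their values were seen, and the deposited table gives no error for how reads were divided between models that share nearly all exons.

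Tpm2, the beta-tropomyosin of skeletal and smooth muscle, was the least abundant of the family and was highest in control 35, with TFEB 34 next. The gene (Entrez 22004, chr4:43513726-43523583) was at 68.0, 42.5 and 29.1 TPM in control 35, 36 and 37 and at 60.9, 44.4 and 21.6 TPM in TFEB 34, 41 and 43. The groups overlapped, at 46.5 ± 19.8 and 42.3 ± 19.8 TPM (SD, n = 3 each). In edgeR's test TFEB over control gave -0.38 ± 0.45 (log2, SE, adjusted p = 1.00), and without control 35 it turned to 0.15 ± 0.37. The 95% interval of the ratio was 0.365 to 1.62.

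Control 35 stood apart in the muscle-type Tpm2 model. NM_009416, long with 6b and 9a, was at 22.4 TPM in control 35, on 604 estimated counts, and at 5.73 and 3.32 TPM in control 36 and 37. In TFEB 34, 41 and 43 it was at 4.55, 3.67 and 2.30 TPM. Control 35 was the 1 library far from the rest, and the other 5 overlapped between groups. With control 35 the log2 difference was -1.60 ± 0.74 (SE; adjusted p = 1.00 in edgeR), and without it -0.38 ± 0.40. Control 35 was also the library with the most Myl7, 1507 CPM, and the most of the other atrial genes Myl4, 1953 CPM, and Sln, 632 CPM. The fast light chain Myl1 was at 168 CPM there and at 26.6 to 45.2 CPM elsewhere. The other libraries came in another order for Myl7 than for NM_009416. Control 37 had the next most Myl7, 134 CPM, but less NM_009416 than TFEB 34, where Myl7 was lowest at 0.127 CPM. Of 9 skeletal muscle markers, the summed level was 7.72 CPM in control 35 and 2.30 to 4.91 CPM in the other libraries, with the fast troponin Tnni2 at 4.83 CPM as the highest single marker. Of the fast myosins, Myh4 was at 0 and Myh1 and Myh2 were at 0.134 and 0.0671 CPM in control 35. The part of atrial or skeletal muscle in the NM_009416 value was not tested, and Myl1 was picked after its values were seen.

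The smooth muscle type NM_001277876, with 6a and 9d, was at 5.45, 7.18 and 5.61 TPM in control 35, 36 and 37 and at 11.0, 11.3 and 3.82 TPM in TFEB 34, 41 and 43. TFEB 43 was the lowest of the 6 and the other TFEB libraries the highest, so the groups overlapped (log2 fold change 0.49 ± 0.42 SE). As a share of Tpm2 TPM with a known chain, 6a and 9d made up 19.0%, 55.6% and 61.2% in control 35, 36 and 37 and 69.7%, 72.9% and 62.4% in TFEB 34, 41 and 43. All 3 TFEB shares were above the 3 controls (exact two-sided permutation p = 0.1, the smallest possible), though control 37 and TFEB 43 were 61.2% and 62.4%. The separation rested on counting the rare NM_001277875: the ratio of NM_009416 to NM_001277876 alone was 4.11, 0.798 and 0.592 in control 35, 36 and 37 and 0.412, 0.326 and 0.602 in TFEB 34, 41 and 43, which overlapped (exact two-sided permutation p = 0.2). NM_009416 likewise took 32.9%, 13.5% and 11.4% of all Tpm2 TPM in control 35, 36 and 37 and 7.47%, 8.28% and 10.7% in TFEB 34, 41 and 43. These shares were singled out after their values were seen, and edgeR's test of transcript usage did not call NM_009416 (log2 difference in usage -1.23, adjusted p = 1.00). Most Tpm2 signal, 57.7% to 74.0%, was assigned to the predicted XM_006537780, which has no known chain here. It was at 39.3, 29.6 and 20.0 TPM in control 35, 36 and 37 and at 45.1, 28.9 and 15.4 TPM in TFEB 34, 41 and 43, overlapping throughout. The last model, NM_001277875, was at 0 to 0.91 TPM.

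**Figure D3:**
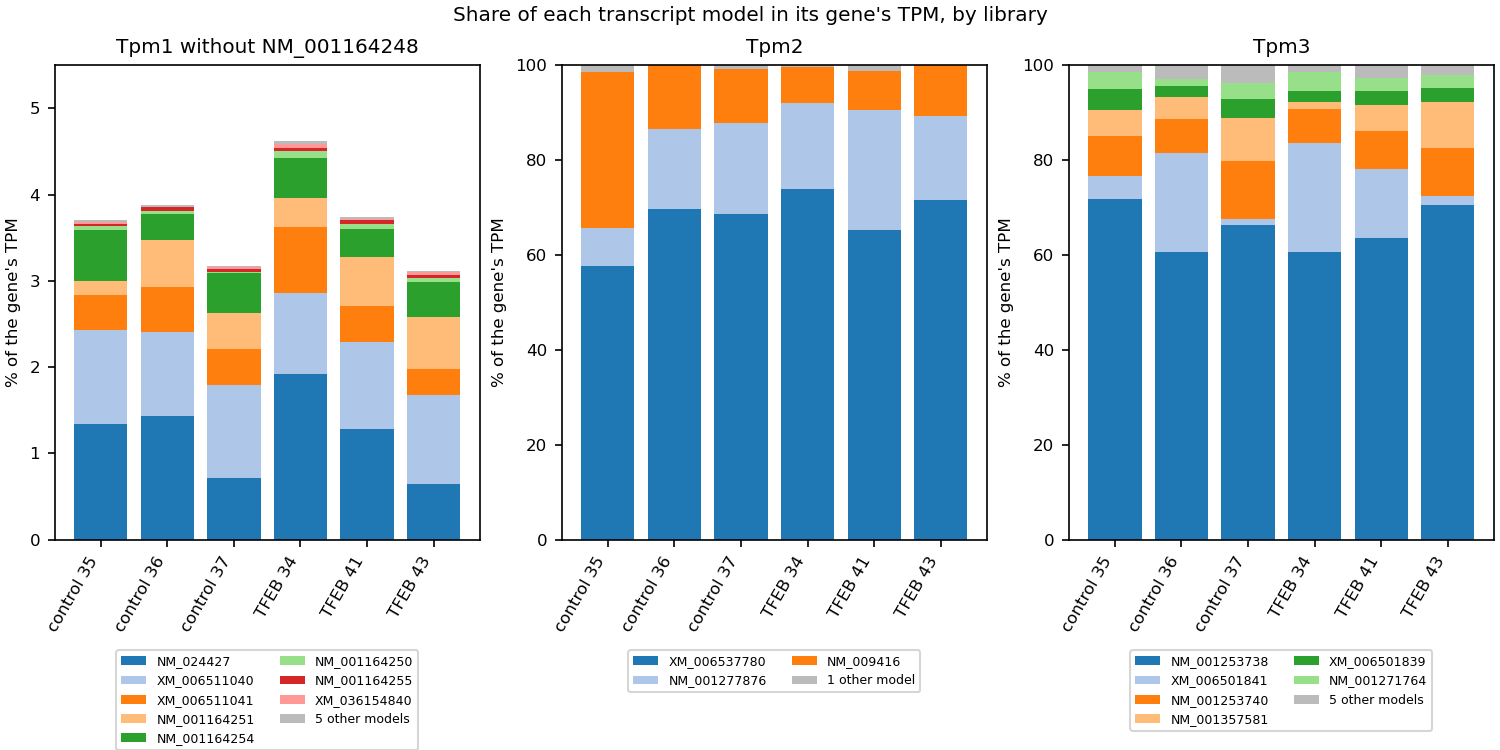
Stacked bars of each model's percent of its gene's TPM in the 6 libraries, for Tpm1 without its leading model NM_001164248 (axis to 5.5%), Tpm2 and Tpm3 (axes to 100%). Tpm2 NM_009416 fills 32.9% of the control 35 bar and 7.47% to 13.5% of the others, and Tpm3 XM_006501841 is wide in TFEB 34, control 36 and TFEB 41 and thin in control 37 and TFEB 43.

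Tpm3 gives a slow skeletal muscle form from its upstream promoter and cytoskeletal forms from its internal one. Among its models with a known chain, nearly all TPM here was in short forms. The gene (Entrez 59069, chr3:90072651-90100902) was at 72.6, 109 and 69.3 TPM in control 35, 36 and 37 and at 142, 99.2 and 62.8 TPM in TFEB 34, 41 and 43. TFEB 34 was highest and TFEB 43 lowest, with group means of 83.7 ± 22.1 and 101 ± 39.7 TPM (SD, n = 3 each). In edgeR's test TFEB over control gave 0.24 ± 0.24 (log2, SE, adjusted p = 1.00), the ratio's 95% interval was 0.793 to 1.75, and without TFEB 34 the log2 fold change was 0.01. The long forms NM_001293748, with 6b and 9a, and NM_022314, with 6a and 9d, were listed at 0 in 5 libraries. In TFEB 41 they were at 0.18 and 0.25 TPM. Short forms made up at least 99.4% of Tpm3 TPM with a known chain. Models without a known chain held 16.3% to 30.7% of the gene's TPM, and whether they are long or short is not known here. The leading model, NM_001253738 with 6a and 9d, was at 52.2, 66.1 and 46.0 TPM in control 35, 36 and 37 and at 86.2, 63.0 and 44.2 TPM in TFEB 34, 41 and 43, or 60.6% to 71.9% of the gene. The short 6b and 9a model NM_001253740 was flatter, at 6.05 to 9.96 TPM. Among the rarer Tpm3 models, NM_001271764, NM_001357581 and XM_006501839 lay between 1.64 and 6.33 TPM, and 3 predicted models reached at most 1.69 TPM. RefSeq lists 3 Tpm3 pseudogenes, and reads shared with them could not be separated here.

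The widest spread of any tropomyosin model above 0 in every library belonged to the predicted Tpm3 model XM_006501841, and it ran within the groups rather than between them. It was at 3.48, 22.7 and 0.78 TPM in control 35, 36 and 37 and at 32.7, 14.6 and 1.28 TPM in TFEB 34, 41 and 43, from 10.2 estimated counts in control 37 to 452 in TFEB 34. Highest and lowest libraries differed 41.9-fold, whereas the leading Tpm3 model spanned 1.95-fold, and each group held high and low libraries. As a percentage of NM_001253738 it was 6.67%, 34.3% and 1.70% in control 35, 36 and 37 and 37.9%, 23.1% and 2.90% in TFEB 34, 41 and 43. The log2 fold change of 0.84 ± 1.39 (SE, edgeR adjusted p = 1.00) turned to -0.12 without TFEB 34. The 4 highest libraries came in the same order as for periostin (Postn), a matrix protein of activated fibroblasts. Postn was at 489, 1722 and 181 CPM in control 35, 36 and 37, against 3366, 1255 and 87.6 CPM in TFEB 34, 41 and 43. Of the 12 activated fibroblast and matrix markers, 12 had log2 fold changes above 0, with a median of 0.73, and none passed. The part of these cells in the level of XM_006501841 was not tested.

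**Figure D4:**
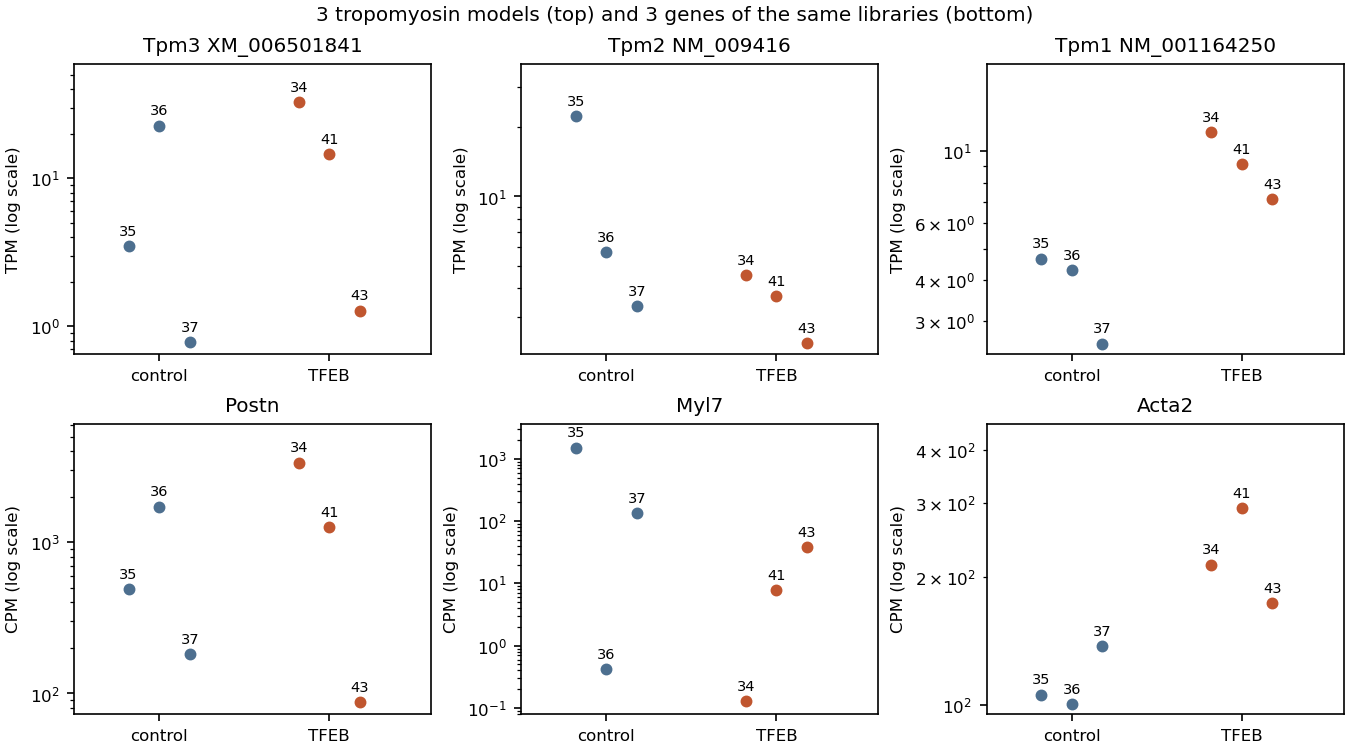
Top, TPM (log axis) of 3 models by library number: Tpm3 XM_006501841, Tpm2 NM_009416 and Tpm1 NM_001164250; bottom, CPM (log axis) of Postn, Myl7 and Acta2 in the same libraries. XM_006501841 and Postn are both highest in TFEB 34, control 36 and TFEB 41. NM_009416 and Myl7 are both highest in control 35, but the other libraries come in different orders. NM_001164250 and Acta2 are both higher in every TFEB library than in any control, but their orders within the groups differ. The model was picked after its values were seen and Acta2 has the smallest unadjusted edgeR p of its list. Their shared separation comes with that choice, and a link was not tested.

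Tpm4, a cytoskeletal tropomyosin with a single short model here (NM_001001491, 248 residues, ending in 9d), followed the same libraries as Tpm3. The gene (Entrez 326618, chr8:72135288-72153142) was at 126, 194 and 131 TPM in control 35, 36 and 37 and at 262, 210 and 121 TPM in TFEB 34, 41 and 43. The TFEB group held both the highest and the lowest library, and the means were 150 ± 37.5 and 198 ± 71.2 TPM (SD, n = 3 each). In edgeR's test TFEB over control gave 0.37 ± 0.26 (log2, SE, adjusted p = 1.00), a 1.29-fold ratio with a 95% interval of 0.844 to 1.98. Without TFEB 34 it was 0.18. After centring each gene's log2 CPM on its mean over the 6 libraries, Tpm3 and Tpm4 differed by 0.10 (root mean square). Tpm1 differed from Tpm3 and Tpm4 by 0.49 and 0.50 on that measure, and Tpm2 differed from the other 3 by 0.57 to 0.82. Platelets also contain Tpm4; 6 platelet and megakaryocyte markers summed to 40.9, 19.8 and 67.5 CPM in control 35, 36 and 37, against 21.0, 24.9 and 27.5 CPM in TFEB 34, 41 and 43, and their part in the Tpm4 values was not tested.

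Across the family, 18 of the 24 tested models had a log2 fold change above 0 and 6 below, with a median of 0.19 against 0.00 for all 33706 transcripts. The median of the 4 genes was 0.18 against 0.00 for all genes. Of the tested models, 12 belong to Tpm1 and 8 to Tpm3, and models of a gene share reads, so they do not count as separate members. None of the 24 models passed an adjusted p of 0.05, with 1 at an unadjusted p under 0.05. Over all transcripts edgeR called 0, a background of 0%, with 649 at an unadjusted p under 0.05, whereas DESeq2 called 216, none of them a tropomyosin. The test of transcript usage called 8 of 28087 transcripts, 0.0285%, and none of the 23 tropomyosin models it covered, none of which had an unadjusted p under 0.05. The 6 models not tested had few reads, at most 15.1 estimated counts in any library.

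**Figure D5:**
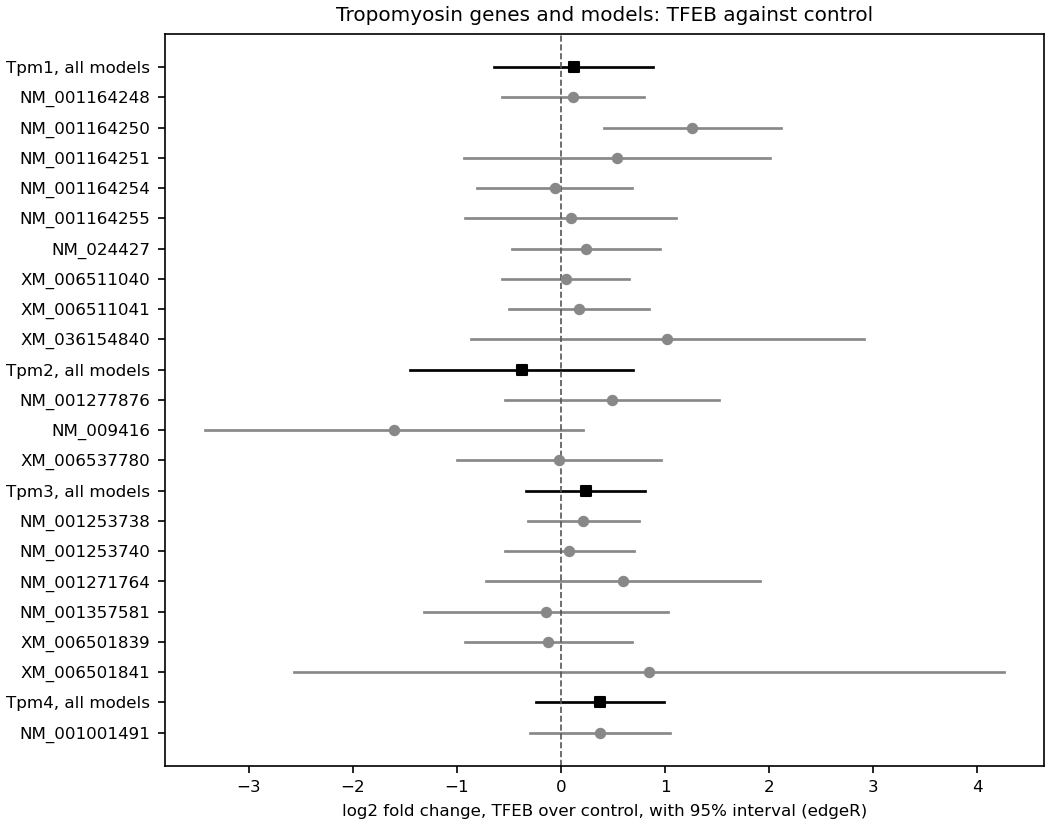
Log2 fold change, TFEB over control, with its 95% interval from edgeR's quasi-likelihood fit, for the 4 genes (black squares) and the 19 models above 0 in every library (grey circles); the dashed line is 0. The interval of NM_001164250 lies above 0 before adjustment, all others cross 0, and that of XM_006501841 is the widest.

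The partners of tropomyosin on the thin filament were examined as lists. Of 19 striated thin filament genes, 17 were tested, 6 had a log2 fold change above 0 and 11 below, with a median of -0.04, and none passed. The cardiac actin Actc1 was at 5385, 8076 and 9113 CPM in control 35, 36 and 37, against 8652, 10782 and 10172 CPM in TFEB 34, 41 and 43, and control 37 lay above TFEB 34. The tropomyosin-binding troponin Tnnt2 had a log2 fold change of -0.01 ± 0.27 (SE), the giant thin filament protein nebulin (Neb) one of -0.61 ± 0.47 and Tnni2 one of -1.05 ± 0.86, both highest in control 35 as NM_009416 was.

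Of the 14 filament genes of smooth muscle and the cytoskeleton tested, 11 had a log2 fold change above 0 and 3 below, with a median of 0.30, and none passed; over all genes tested, 51% were above 0. Some marker lists of other cells leaned the same way, with 12 of 12 activated fibroblast and matrix markers above 0 (median 0.73). The counts were 10 of 12 for macrophage and monocyte markers (0.23) and 9 of 12 for smooth muscle and pericyte markers (0.22). The filament list shares genes with the smooth muscle and pericyte list and with the activated fibroblast list, so these counts are partly of the same genes. Summed activated fibroblast and matrix markers were highest in TFEB 34, at 10140 CPM, and lowest in TFEB 43, at 650 CPM. Macrophage and monocyte markers likewise had their extremes in these libraries, at 1492 and 508 CPM, so the lean of both lists did not extend to TFEB 43. Elsewhere 5 of 10 fibroblast markers were above 0 (median 0.14), 9 of 14 cardiomyocyte markers (0.03) and 3 of 8 endothelial markers (-0.05). Atrial muscle gave 0 of 4 (-5.09), red blood cells 1 of 6 (-0.06), and platelets and megakaryocytes 1 of 5 tested (-0.59). The part of any of these cells was not tested. Smooth muscle actin, Acta2, whose promoter drives the Cre, was at 106, 100 and 137 CPM in control 35, 36 and 37, against 214, 291 and 174 CPM in TFEB 34, 41 and 43. Its groups did not overlap in CPM (log2 fold change 0.98 ± 0.22 SE, edgeR unadjusted p = 0.00394, adjusted p = 1.00). Over all genes tested the background was counted on TPM instead, with 1.84% having every TFEB library higher and 2.27% every one lower. Cytoplasmic actin Actg1 (0.43 ± 0.17 SE) and the actin monomer binder Pfn1 (0.29 ± 0.11 SE) also had no overlap in CPM. Their unadjusted edgeR p was 0.0428 and 0.0450, both with adjusted p = 1.00. For Actg1 the groups all but touched, since TFEB 43 had 500.75 CPM where control 36 had 500.64. The same libraries were nearest for Pfn1, with 151.96 CPM for TFEB 43 against 147.43 for control 36. Both genes were named for a p among the 3 smallest of their lists. How many other genes of these lists separate is not given here. The neuronal pointed-end capper Tmod2, which binds tropomyosin, had a log2 fold change of -0.48 ± 0.21 (SE). Of 19 actin turnover and non-muscle myosin genes, 14 were above 0 and 5 below, with a median of 0.08; the filament severers Cfl1 and Gsn had log2 fold changes of 0.30 ± 0.21 and -0.50 ± 0.35 (SE).

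Regulators of muscle splicing, some of which are known to choose tropomyosin exons, were nearly level. Of 22 tested, 15 had a log2 fold change above 0 and 7 below, with a median of 0.03, and none passed or had an unadjusted p under 0.05. Ptbp1, known to repress alternative exons of Tpm1 in rat, was at 61.6, 72.5 and 56.4 CPM in control 35, 36 and 37, against 88.3, 75.1 and 58.0 CPM in TFEB 34, 41 and 43, overlapping. Rbpms, a smooth muscle splicing factor, and Mbnl1, which promotes adult muscle splicing, had log2 fold changes of 0.03 ± 0.11 and 0.04 ± 0.09 (SE). Srsf2 was at 0.20 ± 0.12 (SE). Rbfox1, a splicing factor of heart muscle and neurons, ranged from 26.0 CPM in TFEB 34 to 73.7 CPM in control 35 with a log2 fold change of -0.43 ± 0.45 (SE).

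The genes whose levels ran most like each tropomyosin over the 6 libraries were found among 10917 genes by the smallest root mean square difference of centred log2 CPM, which is a description over 6 points that share library depth and tissue make-up. For Tpm1 they were Dot1l (0.04), Ears2 (0.05) and Nhlrc1 (0.05). For Tpm2, whose nearest genes were farther off, they were Kcnt2 (0.10), Scd2 (0.14) and Gucy1a1 (0.15). For Tpm3 they were the small GTPase Rhoc, Prmt2 and the endothelial receptor Acvrl1, each at 0.03. For Tpm4 they were Ttyh2 (0.04), Kctd17 (0.06) and Ap1s2 (0.08).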

How the data were processed

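RNA-seq of 6 mouse heart libraries was analysed from 1 deposited table of transcripts. The authors deposited estimated counts, TPM and FPKM per transcript, per the file headers; the submitters' processing notes name HISAT2 2.1.0, Bowtie2 2.3.4.3, RSEM 1.3.1, DESeq2 1.4.5 and the build mm10, without roles. Which strand setting and annotation release were used is stated by no label or header (not given in the sources used here). FPKM values were not analysed, and 8 columns of normalised counts were empty.

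Estimated counts were summed per Entrez gene and rounded, also per transcript. Symbols and gene coordinates came from RefSeq GRCm38.p6 (17407 identifiers matched, 117 did not), and exon chains from GENCODE M21. Genes, transcripts and transcript usage (diffSpliceDGE) were tested with edgeR 4.0.16 (filterByExpr, TMM, quasi-likelihood, two-sided), with p-values adjusted by Benjamini-Hochberg over everything tested. The fits were checked on simulated data: the gene test recovered most large changes with few false calls, and the transcript test missed most of the changes. The usage test called more unchanged than changed transcripts. That count of unchanged transcripts takes in those sharing a gene with a changed one, whose usage does shift. The calls of the usage test are therefore weak evidence. SE is the log2 fold change divided by the root of F. CPM values are TMM-scaled. Shares and ratios of TPM were compared by exact permutation of the 6 libraries (20 splits). Alternatives were RLE and upper-quartile scaling, DESeq2 1.42.0, limma-voom and limma on log2(TPM + 1) or log2(TPM + 0.1) (limma 3.58.1), other filters, and leaving out each library. Named genes are the 4 members, all their models, the 3 genes of smallest p in each of 4 partner lists plus Actc1, Tnnt2, Acta2, Ptbp1, Rbpms and Mbnl1, and the 3 most like genes per member (mean of at least 5 CPM). Outside that rule, Tfeb was named as the study's target, Myh6, Pdgfra, Myl7, Myl4, Sln, Nppa, Postn, Myh1, Myh2 and Myh4 as members of the marker lists, chosen from them after their values were seen, and Myl1 likewise from outside the lists. Members and lists were chosen with earlier results of these data known. Total counts of 12942480 to 14969287 per library limit models with few reads.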

Additional observations from a re-analysis of the deposited data

How the results depend on the processing

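No tropomyosin gene or model was called in any fit listed here. The log2 fold changes of the 4 genes kept their direction in 53 of 56 alternatives. Leaving out 1 library at a time gave -0.014 to 0.33 for Tpm1 and -0.64 to 0.15 for Tpm2, where the sign turned without control 35 or TFEB 43 for Tpm1 and without control 35 for Tpm2. Over all transcripts and genes, DESeq2 called 1 gene and 216 transcripts where edgeR called 0, limma on log2(TPM + 1) called 1 transcript, and for usage limma diffSplice called 0 and leaving out a library 4 to 15, against 8; the cause was not tested. Among 240 alternatives for 20 models, 26 turned the sign, in 11 models whose values lie near 0 or rest on 1 library. Leaving out 1 library at a time gave -0.018 to 0.32 for NM_001164248, -0.32 to 0.17 for NM_001164254, -0.12 to 0.30 for NM_001164255, -0.11 to 0.28 for XM_006511040, -0.074 to 0.35 for XM_006511041, -8.41 to 0.84 for XM_006511051, -0.38 to 0.26 for XM_006537780, -0.054 to 0.23 for NM_001253740, -0.48 to 0.19 for NM_001357581, -0.24 to 0.040 for XM_006501839 and -0.12 to 2.82 for XM_006501841. NM_001164254 was at 0.0067 on log2(TPM + 1), against -0.06. Shares of the leading models moved by less than the spread between libraries in all 21 alternatives. No paired analysis was possible because the groups share no replicate numbers. Models with under about 100 estimated counts, such as NM_001164250 in controls, are limited by depth and by reads shared with other models.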
